A study of Homo sapiens with 12 samples.

Results

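A panel of 55 genes of mitosis and of the passage from G2 into it was followed in 2 human lymphoma lines given morusinol. The panel was set by gene symbol: cyclins and CDK1 with its switches, the Aurora and Polo-like kinases, the spindle checkpoint, kinetochore proteins, kinesin motors, and the proteins of chromosome condensation and of cytokinesis. Each symbol was found once among the 61466 genes of the deposited table. SU-DHL-8 and Farage are established lines of diffuse large B cell lymphoma, labelled WT in genotype and lymph node in tissue. Libraries came from SU-DHL-8 cells under morusinol, SU-DHL-8 cells under vehicle (control), Farage cells under morusinol and Farage cells under vehicle, all taken at 12 h, 3 libraries to a group and 12 in all. Mulberry root bark holds morusinol, a flavonoid with a prenyl group, and the labels give no dose. Nor do they say whether replicates were separate cultures, so the p-values measure only the spread between these libraries.

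As background, a cell commits to mitosis when CDK1, bound to a B-type cyclin, is freed of inhibitory phosphates. It then condenses its chromosomes, builds a spindle and holds back anaphase until every kinetochore is attached. The genes for this machinery are switched on together late in the cell cycle, and many of their promoters carry a CHR element (cell cycle genes homology region) bound by the repressor complex DREAM and by the activators B-MYB and FOXM1 on the same MuvB core, often beside CCAAT boxes bound by NF-Y. They are kept low in resting cells and are strongly expressed in proliferating lymphoma cells.

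RNA level is given in FPKM, fragments scaled by exon length and by library depth. Estimated depth ran between 6.05 and 19.0 M (mega) fragments, and the morusinol libraries were mostly the shallower ones: 6.05 to 15.0 M against 14.2 to 15.2 M in SU-DHL-8 controls, and 9.37 to 12.7 M against 16.6 to 19.0 M in Farage controls. All 6 B lymphocyte markers were detected throughout, with summed levels of 230.1 to 238 FPKM in SU-DHL-8 morusinol, 354 to 368 FPKM in SU-DHL-8 control, 613 to 659.9 FPKM in Farage morusinol and 966 to 1021 FPKM in Farage control libraries. In SU-DHL-8, CD79B (mean 91.6 FPKM with morusinol, 71.7 FPKM in controls) and PAX5 (45.1 and 39.8 FPKM) went against the sum, and the other markers fell. All 6 means were lower with morusinol in Farage, CD79A only from 391 to 376 FPKM. The part of depth and of these B cell genes in the results was not tested. Markers of other cell types were low, and the 6 for T and NK cells summed to 2.31 FPKM at most. The sums reached 1.78 FPKM for the 4 myeloid markers and 2.16 FPKM for the 6 of stromal and epithelial cells. CD3D, which codes for a CD3 chain of the T cell receptor complex, was at 0 in 11 of the 12 libraries. A single library stood apart in these lists, since PDGFRB was at 0.811 FPKM in Farage control replicate 2 and at 1.32, 1.07 and 0.818 FPKM in Farage morusinol libraries, against 0.00739 and 0 FPKM in the other Farage controls. EPCAM, too, was at 0.310 FPKM in that replicate, against 0.0217 and 0 FPKM in the other Farage controls. Its values in Farage morusinol libraries were 0.553, 0.461 and 0.211 FPKM. Results that change without Farage control replicate 2 are given with and without it.

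Promoters of 6 genes are shown because these genes had the smallest p-values over both lines within the panel and an entry in the promoter table. Each window runs 250 bases before to 50 bases after a RefSeq transcription start on GRCh38.p14, written 5′ to 3′ on the gene's own strand. Capitals mark matches to 3 kinds of motif on either strand. The first is the CHR element TTTGAA with its variants TTTAAA, then CTTGAA and TTCGAA, the second the NF-Y box CCAAT, and the third the E2F sites TTCCCGC, then TTGGCGC and TTCGCGC. A motif on the opposite strand appears as its reverse complement (TTCAAA or TTCAAG for CHR letters, ATTGG for CCAAT), and the marked matches do not overlap. CCNA2 is at chr4:121823834-121824133 on the minus strand, CCNB1 at chr5:69166900-69167199 on the plus strand, BUB1B at chr15:40160819-40161118 on the plus strand, DLGAP5 at chr14:55191536-55191835 on the minus strand, TOP2A at chr17:40417847-40418146 on the minus strand and SMC2, at the first of its 2 listed starts, at chr9:104094059-104094358 on the plus strand.
CCNA2: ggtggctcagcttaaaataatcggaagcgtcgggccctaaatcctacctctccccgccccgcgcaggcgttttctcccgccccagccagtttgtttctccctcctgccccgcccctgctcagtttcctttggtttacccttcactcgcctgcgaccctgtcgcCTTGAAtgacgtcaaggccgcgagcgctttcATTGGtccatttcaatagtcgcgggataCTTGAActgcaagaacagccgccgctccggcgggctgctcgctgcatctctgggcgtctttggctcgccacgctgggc
CCNB1: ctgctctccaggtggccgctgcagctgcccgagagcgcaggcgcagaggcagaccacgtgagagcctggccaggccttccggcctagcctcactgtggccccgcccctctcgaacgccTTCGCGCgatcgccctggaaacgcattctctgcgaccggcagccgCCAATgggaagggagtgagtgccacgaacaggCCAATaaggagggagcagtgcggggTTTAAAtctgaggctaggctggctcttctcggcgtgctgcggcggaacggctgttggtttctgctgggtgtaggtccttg
BUB1B: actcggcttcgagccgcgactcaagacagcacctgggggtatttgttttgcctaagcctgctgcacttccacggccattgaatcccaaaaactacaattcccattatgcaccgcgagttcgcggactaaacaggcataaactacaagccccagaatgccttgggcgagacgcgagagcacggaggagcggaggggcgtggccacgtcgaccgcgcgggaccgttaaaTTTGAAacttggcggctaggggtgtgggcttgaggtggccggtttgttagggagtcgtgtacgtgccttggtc
DLGAP5: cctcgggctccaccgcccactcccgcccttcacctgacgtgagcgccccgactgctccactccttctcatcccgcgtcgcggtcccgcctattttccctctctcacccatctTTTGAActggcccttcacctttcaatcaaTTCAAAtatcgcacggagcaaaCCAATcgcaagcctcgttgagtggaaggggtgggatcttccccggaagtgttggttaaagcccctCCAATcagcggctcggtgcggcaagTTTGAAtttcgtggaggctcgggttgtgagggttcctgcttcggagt
TOP2A: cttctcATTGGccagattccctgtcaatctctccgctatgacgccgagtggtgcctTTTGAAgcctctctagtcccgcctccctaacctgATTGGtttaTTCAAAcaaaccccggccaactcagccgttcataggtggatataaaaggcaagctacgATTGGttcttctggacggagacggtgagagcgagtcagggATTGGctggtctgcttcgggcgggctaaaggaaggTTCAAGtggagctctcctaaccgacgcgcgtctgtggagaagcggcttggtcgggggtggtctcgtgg
SMC2: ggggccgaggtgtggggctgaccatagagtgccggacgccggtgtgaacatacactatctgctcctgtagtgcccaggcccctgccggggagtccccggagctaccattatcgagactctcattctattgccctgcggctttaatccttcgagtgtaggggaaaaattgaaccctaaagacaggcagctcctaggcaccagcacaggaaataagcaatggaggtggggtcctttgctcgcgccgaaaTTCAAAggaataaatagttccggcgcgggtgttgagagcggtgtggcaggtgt

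The table held 59 windows for 47 of the 55 genes. AURKA, BIRC5, BUB3, FOXM1, TPX2, TTK, UBE2C and WEE1 had no window. TTTGAA was found in 39 of the 59 windows (66.1%), against 15.2% of all 35116 windows in the table. With the variants the share was 86.4%, against 32.2% of all windows. CCAAT was found in 71.2% of the panel's windows, against 34.6% of all, and an E2F site in 25.4%, against 11.0% of all. Counted by gene, TTTGAA together with 2 or more CCAAT boxes was found in 19 of the 47 genes, against 2.71% of all 27305 genes with a window. In the windows printed above, the CHR-like letters closest to the start lay at positions -28 in CCNA2, -30 in CCNB1, -23 in BUB1B, 4 in DLGAP5, -18 in TOP2A and -3 in SMC2, counted from the start. TOP2A held 4 CCAAT boxes and CCNB1 and DLGAP5 a pair each. Of the 47 genes, AURKB alone had no CHR element or variant in its window. These are matches of letters and do not show binding.

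Most of the mitotic genes were lower with morusinol in SU-DHL-8, while in Farage more of them were higher than lower. Of 53 genes tested, 47 fell and 1 rose in SU-DHL-8. In Farage 25 rose, 10 fell and 18 were not called. CCNB1, which codes for the cyclin that takes CDK1 into mitosis, was at 36.4% of its control mean in SU-DHL-8 and at 83.2% in Farage. BUB1B, a kinase-like checkpoint protein, was at 56.5% of its control mean in SU-DHL-8 and at 135% in Farage.

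The calls come from limma on log2(FPKM + 1), with p-values adjusted by the Benjamini-Hochberg method over all 17574 genes tested and a threshold of 0.05. Over all genes tested, 46.8% were called in SU-DHL-8 (25.1% higher and 21.6% lower) and 43.1% in Farage (21.9% higher and 21.2% lower). The median log2 fold change of the 53 genes was -0.54 in SU-DHL-8, where the median of all genes tested was 0.017. In Farage it was 0.14, against -0.027 for all genes tested. All 3 treated values lay below all 3 controls for 48 of the 53 genes in SU-DHL-8, which 24.9% of all genes tested also did. In Farage the treated values lay above the controls for 26 genes, against 25.8% of all genes tested, and below them for 8 genes, against 25.3%. In bulk RNA, fewer cells in G2 and mitosis and less of these RNAs per cell cannot be told apart. Without Farage control replicate 2 the Farage counts were 21 higher and 7 lower, and without Farage control replicate 3 the number lower was 6.

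**Figure D1:**
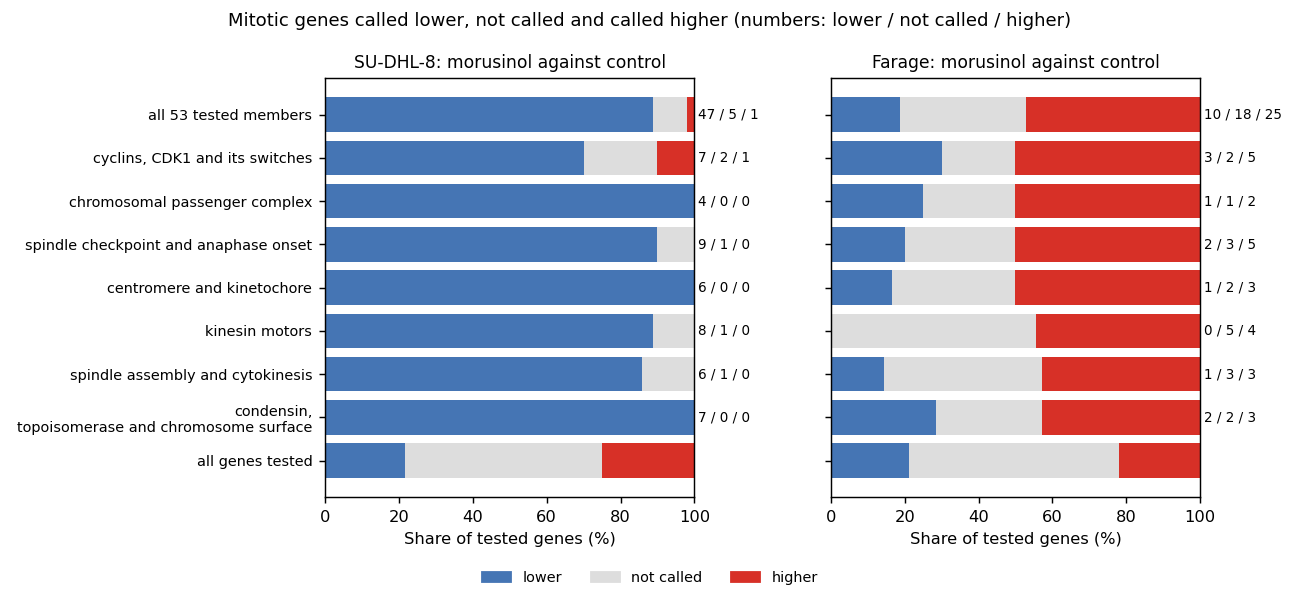
Share of tested genes called lower (blue), not called (grey) and called higher (red) with morusinol, in SU-DHL-8 (left) and Farage (right), for all 53 tested mitotic genes, for each of their 7 role groups and for all 17574 genes tested; the numbers beside the bars are gene counts in that order. Of the 53 mitotic genes, 47 were lower in SU-DHL-8, against 21.6% of all genes tested. In Farage 10 (18.9%) were lower, which is no more than the 21.2% of all genes tested.

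Crossing the calls of both lines, 20 genes (37.7% of the 53) were lower in SU-DHL-8 and higher in Farage, a pair of calls that 2.55% of all genes tested had. They were AURKA, AURKB, BUB1, BUB1B, BUB3, CDC20, CDCA8, CENPA, CENPF, ECT2, KIF11, KIF23, KIF4A, NCAPG, NCAPH, NDC80, PLK1, TOP2A, TPX2 and WEE1. A further 10 (18.9%) were lower in both lines, against 11.1% of all genes tested: BIRC5, CCNA2, CCNB1, CDK1, DLGAP5, MAD2L1, PTTG1, SMC2, SMC4 and SPC25. Another 17 (32.1%) were lower in SU-DHL-8 and not called in Farage. In turn 4 genes (7.55%), CCNB2, CDC25C, KIF2C and SGO1, were not called in SU-DHL-8 and higher in Farage. CDC25B was higher in both lines, and HMMR was called in neither. The shares of all genes tested with these last pairs of calls were not counted. Whatever the call in the other line, 21.6% of all genes tested were lower in SU-DHL-8 and 21.9% higher in Farage.

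The difference between the responses was tested directly, as the response of Farage minus that of SU-DHL-8. It was above 0 for 52 of the 53 genes, against 7836 of all 17574 genes tested. It was called above 0 for 49 of the 53, with a median of 0.71 on the log2 scale. Over all genes tested, 34.9% were called for this difference (17.3% above 0 and 17.6% below), and the median was -0.067. No mitotic gene was called below 0 by limma, and none had an unadjusted p under 0.05 in that direction, although CDC25B was called below 0 without Farage control replicate 2 (-0.24, adjusted p = 0.0390). CCNB2, CDC25B, SMC2 and SMC4 were not called. SMC4 (0.27 in the fit of all libraries, adjusted p = 0.0511) was called above 0 without either Farage control replicate 2 (0.30, adjusted p = 0.0437) or Farage morusinol replicate 1 (0.32, adjusted p = 0.0222), and also with TPM (0.39, adjusted p = 0.0418), with 2 other scalings and with a filter of 5 FPKM. CCNB2 was called above 0 without SU-DHL-8 morusinol replicate 1 (0.15, adjusted p = 0.0317), with TPM (0.25, adjusted p = 0.0266) and with those other scalings. The 5 genes with the smallest p for the difference were BUB1B, CCNB1, TPX2, UBE2C and AURKA. By GENCODE release 29 on GRCh38, 3 of these lie on chromosome 20: TPX2 at chr20:31739271-31801805 and UBE2C at chr20:45812576-45816957 on the plus strand, and AURKA at chr20:56369389-56392337 on the minus strand. BUB1B lies at chr15:40161023-40221136 and CCNB1 at chr5:69167010-69178245, both on the plus strand. CDC25B, the single gene with a difference below 0, is also on chromosome 20, at chr20:3786772-3806121 on the plus strand. These positions are given as description, and no pattern by position was tested. With values rescaled to TPM (each library set to the same sum), 51 of the 53 genes were called above 0, while the share of above-0 calls among all genes called was 62.5%, against 49.6% with the deposited scaling.

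**Figure D2:**
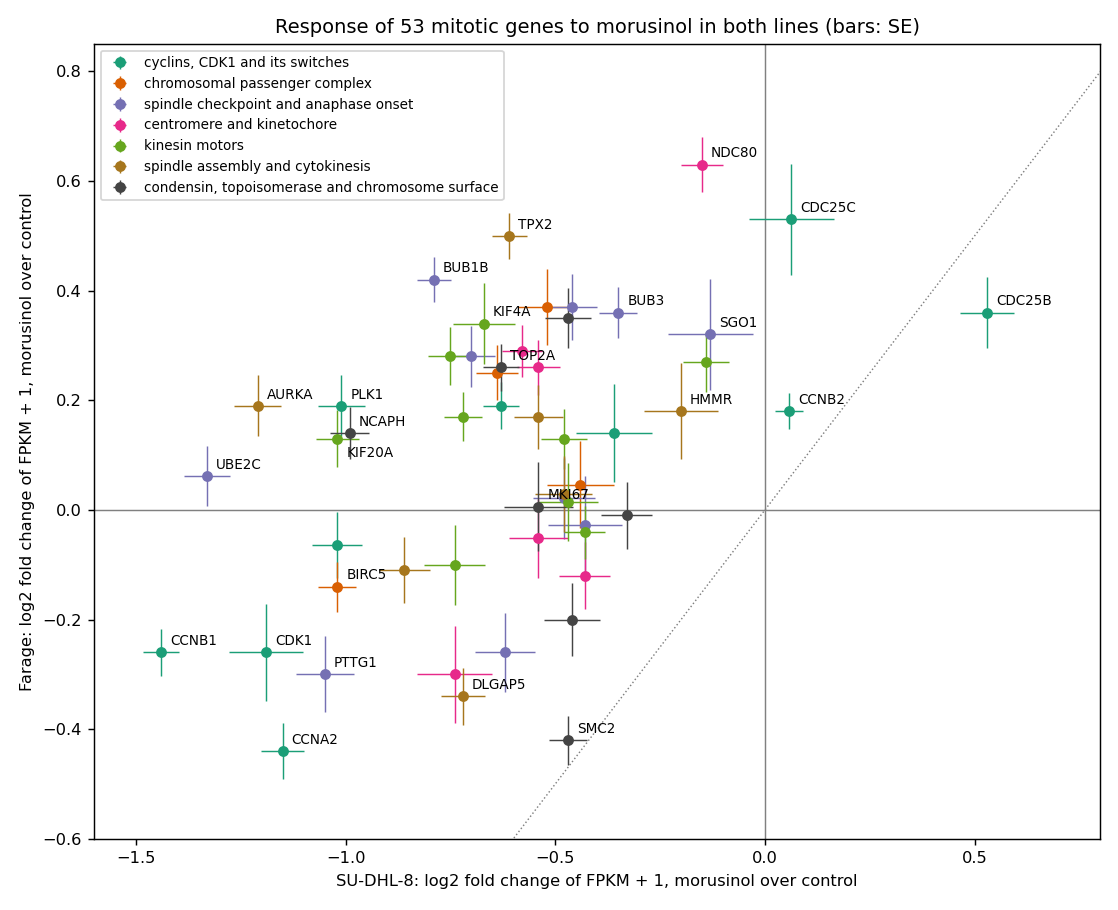
Log2 fold change of FPKM + 1, morusinol over control, in SU-DHL-8 (horizontal axis) and Farage (vertical axis) for the 53 tested mitotic genes, coloured by role group, with bars of 1 standard error on each side and a dotted line where both responses are equal. CDC25B is the single gene below that line, CCNB1 lies at -1.44 and -0.26, and NDC80 at -0.15 and 0.63.

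The summed level of the 53 genes was 1637, 1640.1 and 1643 FPKM in SU-DHL-8 morusinol libraries, against 2633, 2665 and 2576 FPKM in SU-DHL-8 controls. In Farage it was 1667, 1702 and 1736 FPKM with morusinol, against 1595, 1584 and 1615 FPKM in the controls. The groups did not overlap in either line, and the SU-DHL-8 controls stood above the other 3 groups, which lay between 1584 and 1736 FPKM.

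**Figure D3:**
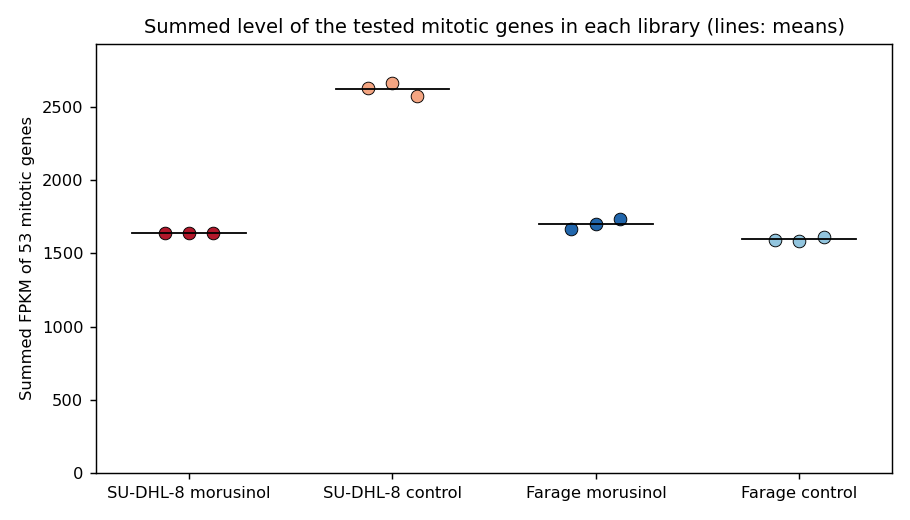
Summed FPKM of the 53 tested mitotic genes in each library (points) with group means (lines), from left to right SU-DHL-8 morusinol, SU-DHL-8 control, Farage morusinol and Farage control. The SU-DHL-8 controls reach 2665 FPKM, and the SU-DHL-8 morusinol libraries lie between 1637 and 1643 FPKM.

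Among the cyclins and the switches of CDK1, 7 of 10 genes fell and CDC25B rose in SU-DHL-8, while in Farage 5 rose and 3 fell. The 3 that fell in Farage were CCNA2, CCNB1 and CDK1. For this and every role group below, the shares of all genes tested in SU-DHL-8 were 21.6% lower and 25.1% higher. In Farage they were 21.2% lower and 21.9% higher. Over the whole panel the 10 genes lower in Farage (18.9% of 53) did not exceed the share lower among all genes tested. CCNB1, whose promoter is shown above, stood at 43.1, 44.7 and 45.9 FPKM in SU-DHL-8 morusinol libraries, against 124, 126 and 117 FPKM in SU-DHL-8 controls. In Farage it stood at 71.1, 70.0 and 69.4 FPKM with morusinol and 81.6, 82.6 and 88.8 FPKM in the controls. All treated values lay below all controls in both lines, by -1.44 ± 0.0430 in SU-DHL-8 (log2 fold change ± SE, adjusted p = 2.6e-09) and -0.26 ± 0.0430 in Farage (adjusted p = 6.3e-04). The responses differed by 1.17 ± 0.0608 (adjusted p = 5.2e-07). CCNA2, the cyclin A2 that serves CDK2 and CDK1 in S phase and G2, was at 42.6, 41.5 and 45.9 FPKM in SU-DHL-8 morusinol libraries, against 97.5, 99.4 and 94.8 FPKM in SU-DHL-8 controls. The Farage libraries held 38.7, 36.9 and 40.9 FPKM with morusinol and 50.5, 53.6 and 55.2 FPKM in the controls, so that it too was lower in every treated library. The log2 fold changes were -1.15 ± 0.0512 and -0.44 ± 0.0512, the second being the lowest of the panel in Farage. CCNA2 shares 9.1% of its exon bases with EXOSC9, an exosome subunit on the opposite strand whose fold changes were -0.82 ± 0.0739 in SU-DHL-8 and -0.67 ± 0.0739 in Farage, and the sources used here do not state the strand of counting. CDK1 averaged 26.0 ± 1.08 FPKM in SU-DHL-8 morusinol libraries and 60.9 ± 6.78 FPKM in SU-DHL-8 controls, and 36.5 ± 2.25 FPKM in Farage morusinol libraries and 44.0 ± 4.06 FPKM in Farage controls (SD, n = 3 each). Its Farage call, at -0.26 ± 0.0884, was lost without any one of Farage control replicates 2 and 3 and Farage morusinol replicates 1 and 2 (log2 value -0.28 to -0.21, adjusted p = 0.0588 to 0.123), and with TPM (adjusted p = 0.0747).

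CCNB2, the second B-type cyclin, did not follow CCNB1. It had 53.8, 50.6 and 51.2 FPKM in SU-DHL-8 morusinol libraries, against 50.9, 49.0 and 49.5 FPKM in SU-DHL-8 controls, and these values overlapped (log2 fold change 0.058 ± 0.0330, adjusted p = 0.190). Its Farage values were 51.5, 53.9 and 52.6 FPKM with morusinol and 46.5, 45.6 and 46.4 FPKM in the controls, with every treated value above every control (0.18 ± 0.0330). The phosphatases CDC25B and CDC25C take inhibitory phosphates off CDK1. CDC25B was at 68.4, 66.2 and 66.2 FPKM in SU-DHL-8 morusinol libraries, against 46.2, 43.7 and 48.1 FPKM in SU-DHL-8 controls. It was at 20.9, 20.5 and 20.5 FPKM with morusinol and 17.9, 14.4 and 15.6 FPKM in the controls in Farage. It rose in both lines, by 0.53 ± 0.0646 in SU-DHL-8 and 0.36 ± 0.0646 in Farage, and the difference between these of -0.18 ± 0.0913 was not called (adjusted p = 0.166). CDC25C, at a lower level, had 4.77, 4.24 and 4.93 FPKM in SU-DHL-8 morusinol libraries, against 4.15, 4.82 and 4.25 FPKM in SU-DHL-8 controls. In Farage the values were 9.45, 6.88 and 8.67 FPKM with morusinol and 5.07, 5.84 and 5.40 FPKM in the controls. The SU-DHL-8 groups overlapped and the Farage groups did not (log2 fold change 0.53 ± 0.101, adjusted p = 0.00170). CDC25C shares 8.8% of its exon bases with FAM53C on the opposite strand, which rose in both lines (0.32 and 0.60), and the difference between its responses was lost without any one of Farage control replicates 1 and 3, Farage morusinol replicates 1 and 3, SU-DHL-8 control replicate 2 and SU-DHL-8 morusinol replicate 2 (log2 value 0.38 to 0.46, adjusted p = 0.0546 to 0.0679).

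WEE1 is the kinase that places the phosphates CDC25 removes. Its values were 8.56, 8.59 and 8.43 FPKM in SU-DHL-8 morusinol libraries, against 13.7, 14.0 and 13.6 FPKM in SU-DHL-8 controls. In Farage they were 25.5, 26.6 and 27.4 FPKM with morusinol and 21.8, 24.4 and 23.1 FPKM in the controls. The change was -0.63 ± 0.0429 in SU-DHL-8 and 0.19 ± 0.0429 in Farage, in opposite directions and with no overlap in either line. PLK1, the Polo-like kinase that helps switch on CDK1, had 19.8, 17.7 and 17.0 FPKM in SU-DHL-8 morusinol libraries, against 37.1, 37.4 and 38.5 FPKM in SU-DHL-8 controls. It had 28.4, 27.7 and 26.8 FPKM with morusinol and 25.5, 23.1 and 23.4 FPKM in the controls in Farage. It was at 48.3% of its control mean in SU-DHL-8 and at 115% in Farage (-1.01 ± 0.0558 and 0.19 ± 0.0558). Its Farage call was lost without any one of Farage control replicates 2 and 3 and Farage morusinol replicate 1 (log2 value 0.17 to 0.18, adjusted p = 0.0553 to 0.0620). CCNF, an F-box protein that marks other proteins for degradation, was at 46.6% of its control mean in SU-DHL-8 (log2 fold change -1.02 ± 0.0601) and at 95.3% in Farage (-0.064 ± 0.0601, not called). FOXM1, the transcription factor of late cell cycle genes, was at 76.5% of its control mean in SU-DHL-8 (-0.36 ± 0.0898) and at 111% in Farage (0.14 ± 0.0898, not called). FOXM1 shares 15.9% of its exon bases with ITFG2 on the opposite strand, which was higher in SU-DHL-8 (0.43) and not called in Farage (0.088).

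**Figure D4:**
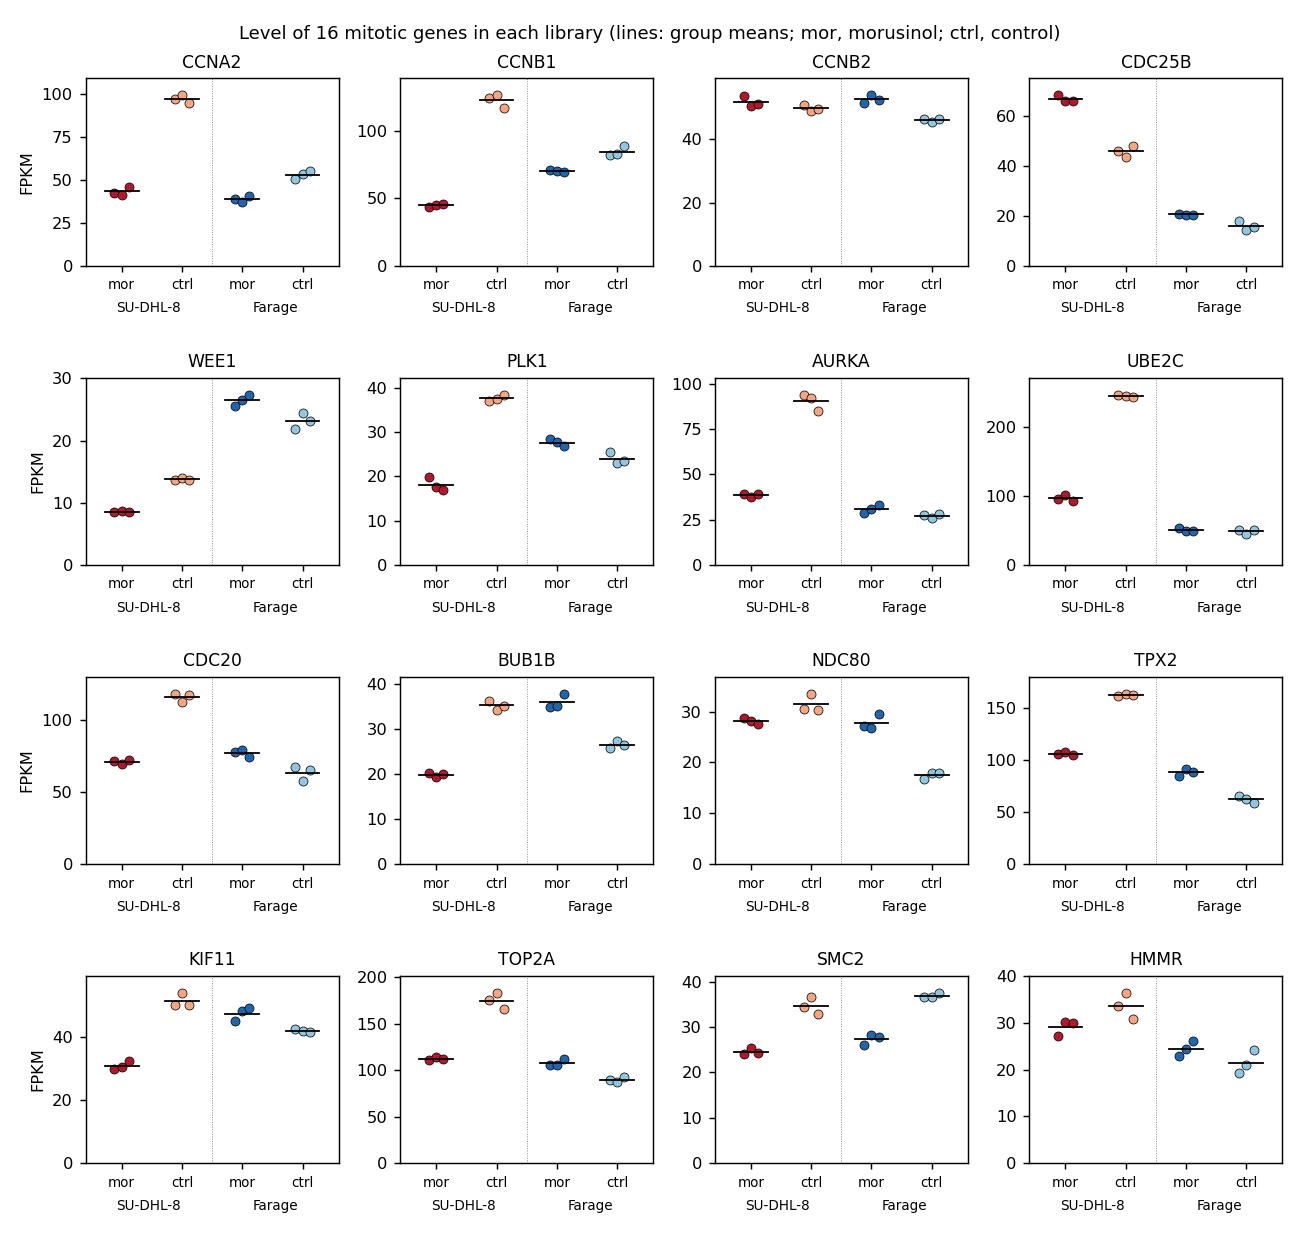
FPKM of 16 mitotic genes in each library (points) with group means (lines), in each panel from left to right SU-DHL-8 morusinol, SU-DHL-8 control, Farage morusinol and Farage control, on axes that start at 0. CCNA2, CCNB1 and SMC2 are lower with morusinol in both lines, CDC25B is higher in both, and WEE1, BUB1B, TPX2, KIF11 and TOP2A are lower in SU-DHL-8 and higher in Farage.

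The chromosomal passenger complex corrects wrong attachments of chromosomes to the spindle, and all 4 of its genes fell in SU-DHL-8. In Farage 2 rose and BIRC5 fell. AURKB, its kinase, had 43.9, 40.7 and 39.7 FPKM in SU-DHL-8 morusinol libraries, against 61.2, 57.2 and 60.8 FPKM in SU-DHL-8 controls. Farage libraries gave 49.5, 48.0 and 43.3 FPKM with morusinol and 38.7, 32.8 and 37.2 FPKM in the controls. The groups did not overlap in either line (log2 fold change -0.52 ± 0.0695 and 0.37 ± 0.0695, in opposite directions). CDCA8 (borealin), which helps place the complex on the centromere, had 30.9, 29.2 and 32.0 FPKM in SU-DHL-8 morusinol libraries, against 49.4, 46.0 and 49.6 FPKM in SU-DHL-8 controls. In Farage its values were 42.4, 45.1 and 40.7 FPKM with morusinol and 36.9, 35.7 and 34.9 FPKM in the controls. It likewise fell by 0.64 on the log2 scale in SU-DHL-8 and rose by 0.25 in Farage. BIRC5 (survivin), the third targeting subunit, was at 26.2, 26.1 and 26.3 FPKM in SU-DHL-8 morusinol libraries, against 53.9, 54.9 and 54.0 FPKM in SU-DHL-8 controls. Its Farage values, 24.0, 22.1 and 21.0 FPKM with morusinol and 24.9, 23.7 and 25.4 FPKM in the controls, overlapped. It was at 48.3% of its control mean in SU-DHL-8 (-1.02 ± 0.0454, adjusted p = 3.3e-08) and at 90.6% in Farage (-0.14 ± 0.0454, adjusted p = 0.0311). The Farage call was lost without any one of Farage control replicates 1 and 3 and Farage morusinol replicates 2 and 3 (log2 value -0.13 to -0.095, adjusted p = 0.0766 to 0.102), and with TPM (adjusted p = 0.121). INCENP, the scaffold, was at 72.6% of its control mean in SU-DHL-8 (-0.44 ± 0.0793) and at 103% in Farage (0.046 ± 0.0793, not called).

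Of the 10 genes of the spindle checkpoint and of anaphase onset, 9 fell in SU-DHL-8, and in Farage 5 rose and 2 fell. The checkpoint proteins BUB1, BUB1B and BUB3 bind unattached kinetochores, and all 3 moved in opposite directions in the lines. BUB1B was at 20.3, 19.4 and 19.9 FPKM in SU-DHL-8 morusinol libraries, against 36.2, 34.3 and 35.1 FPKM in SU-DHL-8 controls. In Farage it was at 34.9, 35.0 and 37.8 FPKM with morusinol and 25.7, 27.3 and 26.5 FPKM in the controls. Its log2 fold change of -0.79 ± 0.0406 in SU-DHL-8 (adjusted p = 8.8e-08) stood against 0.42 ± 0.0406 in Farage (adjusted p = 1.4e-05), and the difference of 1.21 ± 0.0575 had the smallest p of the panel (adjusted p = 3.3e-07). BUB1 was at 53.8, 52.0 and 51.7 FPKM in SU-DHL-8 morusinol libraries, against 74.0, 76.2 and 67.2 FPKM in SU-DHL-8 controls. For Farage the table held 27.4, 28.6 and 31.2 FPKM with morusinol and 22.0, 21.2 and 23.4 FPKM in the controls. The treated values were lower in each case in SU-DHL-8 (-0.46) and higher in each case in Farage (0.37). BUB3 was at 31.6, 30.6 and 32.2 FPKM in SU-DHL-8 morusinol libraries, against 40.8, 41.9 and 38.0 FPKM in SU-DHL-8 controls. It was at 46.7, 46.2 and 48.6 FPKM with morusinol and 34.9, 36.3 and 38.3 FPKM in the controls in Farage. Its changes of -0.35 in SU-DHL-8 and 0.36 in Farage were of nearly the same size. BUB1B shares 10.2% of its exon bases with the read-through gene BUB1B-PAK6, which was listed at 0 in every library. The kinase TTK (MPS1), which starts checkpoint signalling, was at 73.3% of its control mean in SU-DHL-8 (-0.43 ± 0.0881) and at 98.0% in Farage (not called). The difference between its responses, 0.40 ± 0.125, was lost without any one of Farage control replicate 1, Farage morusinol replicate 3, SU-DHL-8 control replicates 1 and 2 and SU-DHL-8 morusinol replicates 1 and 3 (log2 value 0.33 to 0.41, adjusted p = 0.0521 to 0.0659).

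MAD2L1 (MAD2), the checkpoint protein that holds CDC20, was lower in both lines, at 63.7% of its control mean in SU-DHL-8 (-0.62 ± 0.0721) and at 82.3% in Farage (-0.26 ± 0.0721). The Farage call was lost without Farage control replicate 3 (log2 value -0.20, adjusted p = 0.0506). CDC20, the activator of the anaphase-promoting complex that the checkpoint restrains, had 71.1, 69.5 and 72.0 FPKM in SU-DHL-8 morusinol libraries, against 118, 112 and 117 FPKM in SU-DHL-8 controls. In Farage it had 77.5, 79.0 and 74.0 FPKM with morusinol and 67.3, 57.3 and 65.2 FPKM in the controls. It was lower in every treated library of SU-DHL-8 (-0.70 ± 0.0552) and higher in every treated library of Farage (0.28 ± 0.0552). UBE2C, the ubiquitin-conjugating enzyme of that complex, was at 96.2, 102 and 93.3 FPKM in SU-DHL-8 morusinol libraries, against 247, 245 and 243 FPKM in SU-DHL-8 controls. Its Farage values of 53.8, 48.9 and 49.8 FPKM with morusinol and 50.9, 45.0 and 50.2 FPKM in the controls overlapped. Its log2 fold change was -1.33 ± 0.0542 in SU-DHL-8 (adjusted p = 2.0e-08) and 0.062 ± 0.0542 in Farage (adjusted p = 0.404). UBE2C has processed copies elsewhere in the genome, of which UBE2CP1 reached 2.7 FPKM.

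PTTG1 (securin) holds separase in check until anaphase. It stood at 37.6, 32.9 and 32.8 FPKM in SU-DHL-8 morusinol libraries, against 72.2, 77.0 and 67.8 FPKM in SU-DHL-8 controls. In Farage it stood at 52.7, 57.6 and 55.2 FPKM with morusinol and 64.4, 66.7 and 73.0 FPKM in the controls. It was lower in every treated library of both lines (-1.05 ± 0.0694 and -0.30 ± 0.0694). ESPL1 (separase), the protease that opens cohesin rings, was at 70.6% of its control mean in SU-DHL-8 (-0.48 ± 0.0740) and at 102% in Farage (not called). SGO1 (shugoshin) protects cohesin at centromeres, and it had 6.14, 8.28 and 6.82 FPKM in SU-DHL-8 morusinol libraries, against 7.47, 8.47 and 7.45 FPKM in SU-DHL-8 controls. The Farage libraries held 7.38, 8.65 and 8.81 FPKM with morusinol and 6.94, 6.38 and 5.94 FPKM in the controls. The SU-DHL-8 groups overlapped (-0.13 ± 0.101, adjusted p = 0.345) and the Farage groups did not (0.32 ± 0.101, adjusted p = 0.0255). The Farage call of SGO1 was lost without any one of Farage control replicates 2 and 3 and Farage morusinol replicates 2 and 3 (log2 value 0.27 to 0.32, adjusted p = 0.0626 to 0.0874), and its difference between the lines without any one of Farage control replicates 2 and 3, Farage morusinol replicates 2 and 3, SU-DHL-8 control replicate 2 and SU-DHL-8 morusinol replicates 1 and 3 (log2 value 0.37 to 0.45, adjusted p = 0.0611 to 0.0749).

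At the centromere and kinetochore, where microtubules attach, all 6 genes fell in SU-DHL-8, and in Farage 3 rose and SPC25 fell. CENPA, the histone variant that marks centromeres, had 16.1, 14.7 and 13.9 FPKM in SU-DHL-8 morusinol libraries, against 22.7, 23.0 and 22.6 FPKM in SU-DHL-8 controls. Its Farage values were 24.9, 25.6 and 24.1 FPKM with morusinol and 20.5, 19.9 and 20.2 FPKM in the controls. CENPF, a large protein of the outer kinetochore, had 30.2, 30.9 and 31.2 FPKM in SU-DHL-8 morusinol libraries, against 44.1, 45.3 and 45.7 FPKM in SU-DHL-8 controls. It was at 28.2, 29.9 and 31.3 FPKM with morusinol and 26.5, 24.4 and 23.2 FPKM in the controls in Farage. Both were lower in every treated library of SU-DHL-8 (-0.58 ± 0.0482 for CENPA and -0.54 ± 0.0503 for CENPF) and higher in every treated library of Farage (0.29 ± 0.0482 and 0.26 ± 0.0503). CENPA shares 7.0% of its exon bases with SLC35F6 on the same strand, which was higher in both lines (0.36 and 0.33). NDC80, NUF2 and SPC25, with SPC24 outside the panel, code for the microtubule-binding NDC80 complex. NDC80 was at 28.7, 28.2 and 27.6 FPKM in SU-DHL-8 morusinol libraries, against 30.6, 33.5 and 30.4 FPKM in SU-DHL-8 controls. In Farage it was at 27.1, 26.7 and 29.5 FPKM with morusinol and 16.8, 18.0 and 18.0 FPKM in the controls. It had the highest Farage response of the panel, 0.63 ± 0.0509 (adjusted p = 4.0e-06), and a small SU-DHL-8 one, -0.15 ± 0.0509 (adjusted p = 0.0289). The SU-DHL-8 call was lost without any one of SU-DHL-8 control replicate 2 and SU-DHL-8 morusinol replicates 2 and 3 (log2 value -0.16 to -0.11, adjusted p = 0.0648 to 0.110), and with TPM the SU-DHL-8 value was -0.26. NUF2, its partner, was at 68.0% of its control mean in SU-DHL-8 (-0.54 ± 0.0715) and at 96.3% in Farage (not called). SPC25 was at 58.3% in SU-DHL-8 (-0.74 ± 0.0886) and at 79.8% in Farage (-0.30 ± 0.0886). Its Farage call was lost without either of Farage control replicates 2 and 3 (log2 value -0.27 to -0.26, adjusted p = 0.0613 to 0.0658), and its difference between the lines, 0.43 ± 0.125, without SU-DHL-8 control replicate 1 (log2 value 0.37, adjusted p = 0.0511). SPC24 fell in both lines (-0.65 ± 0.0457 in SU-DHL-8 and -0.25 ± 0.0457 in Farage). CENPE, a kinesin of the kinetochore, was at 72.9% of its control mean in SU-DHL-8 (-0.43 ± 0.0615) and at 91.6% in Farage, where it was not called with all libraries but was called lower without Farage morusinol replicate 3 (-0.18, adjusted p = 0.0374).

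**Figure D5:**
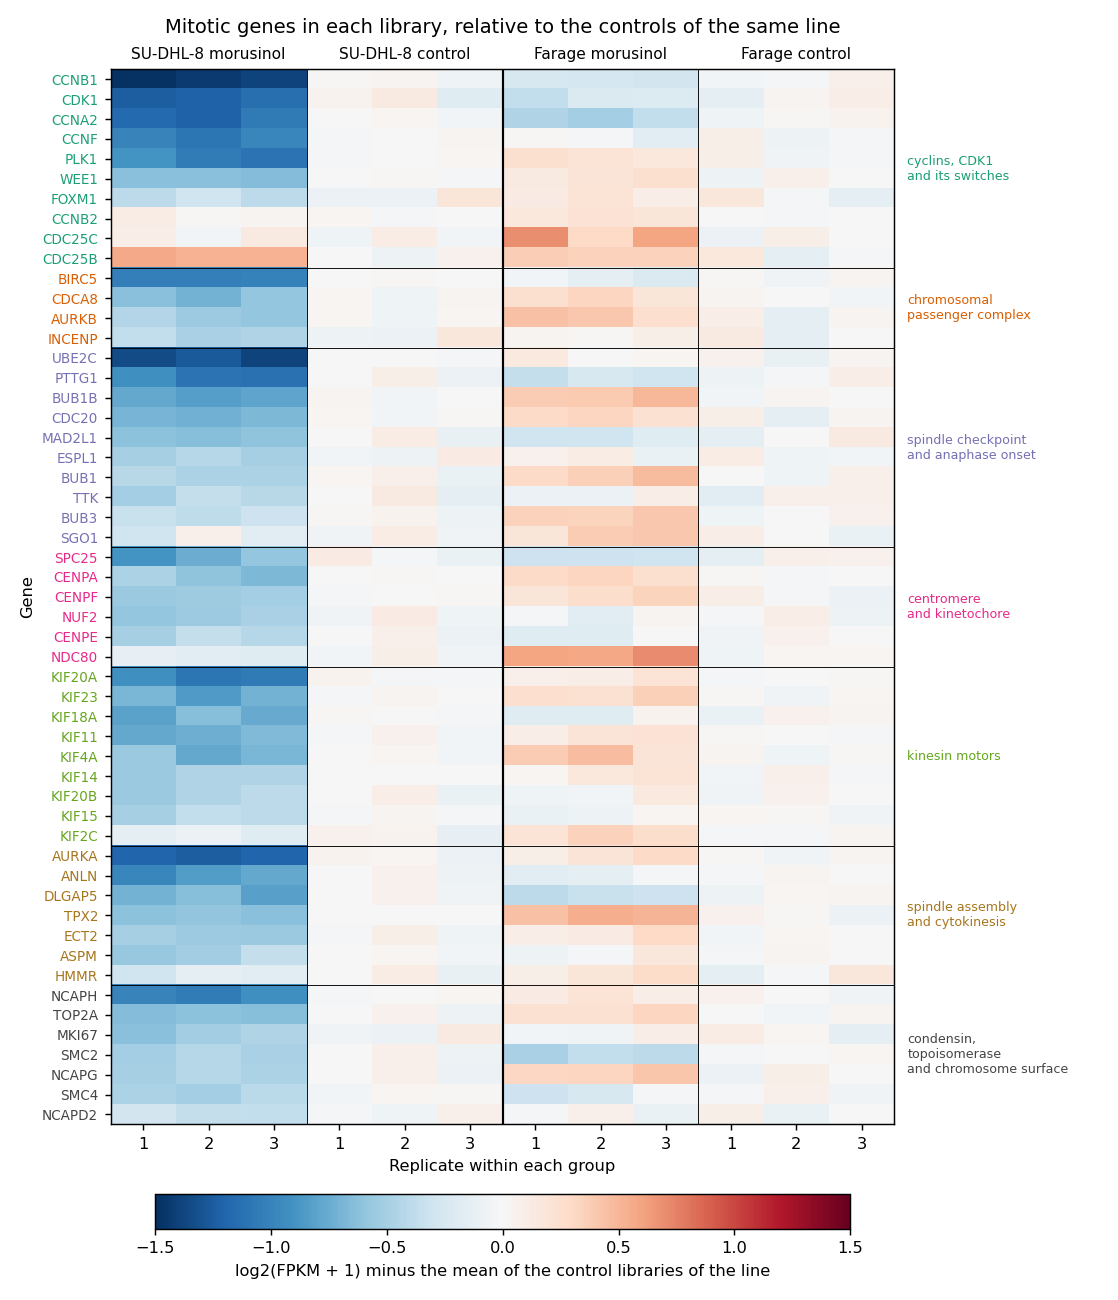
Log2(FPKM + 1) of the 53 tested mitotic genes (rows, by role group and then by SU-DHL-8 fold change) in the 12 libraries (columns), with the mean of the 3 control libraries of the same line subtracted, so that blue is below and red above those controls. The SU-DHL-8 morusinol columns are blue for nearly all genes, the exceptions including CDC25B and CCNB2, and the Farage morusinol columns hold both colours, with NDC80 at a mean of 0.63.

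Of the 9 kinesin motors, 8 fell in SU-DHL-8, and 4 rose in Farage with the other 5 not called. KIF11 (EG5) slides the spindle poles apart, and it had 29.8, 30.5 and 32.2 FPKM in SU-DHL-8 morusinol libraries, against 50.2, 53.9 and 50.1 FPKM in SU-DHL-8 controls. In Farage the values were 44.9, 48.1 and 49.1 FPKM with morusinol and 42.6, 41.8 and 41.5 FPKM in the controls. KIF23 (MKLP1), a motor of the central spindle, had 9.08, 8.05 and 8.94 FPKM in SU-DHL-8 morusinol libraries, against 14.9, 15.7 and 15.2 FPKM in SU-DHL-8 controls. Farage libraries gave 14.0, 13.8 and 15.2 FPKM with morusinol and 11.8, 11.2 and 11.9 FPKM in the controls. Both moved in opposite directions without overlap, KIF11 by -0.72 ± 0.0448 in SU-DHL-8 and 0.17 ± 0.0448 in Farage, and KIF23 by -0.75 ± 0.0529 in SU-DHL-8 and 0.28 ± 0.0529 in Farage. The Farage call of KIF11 was lost with TPM (adjusted p = 0.0676). KIF4A, a motor bound to chromosome arms, had 13.6, 11.6 and 12.3 FPKM in SU-DHL-8 morusinol libraries, against 20.6, 20.9 and 19.8 FPKM in SU-DHL-8 controls. In Farage it stood at 20.4, 21.6 and 17.8 FPKM with morusinol and 16.0, 14.7 and 15.7 FPKM in the controls. It changed by -0.67 in SU-DHL-8 and 0.34 in Farage, again without overlap. KIF2C (MCAK), which takes microtubules apart at kinetochores, had 52.0, 54.4 and 50.9 FPKM in SU-DHL-8 morusinol libraries, against 60.6, 59.9 and 53.2 FPKM in SU-DHL-8 controls. For Farage the table held 40.7, 44.7 and 42.3 FPKM with morusinol and 34.3, 34.7 and 36.2 FPKM in the controls. The SU-DHL-8 groups overlapped (-0.14 ± 0.0552, adjusted p = 0.0624), while in Farage each treated value was above the controls (0.27 ± 0.0552). KIF2C was called lower in SU-DHL-8 without SU-DHL-8 control replicate 3 (-0.20, adjusted p = 0.00792), with TPM (-0.25, adjusted p = 0.0116), with 2 other scalings and with a filter of 5 FPKM. KIF20A (MKLP2), which carries the passenger complex to the midzone, was at 47.7% of its control mean in SU-DHL-8 (-1.02 ± 0.0515) and at 110.0% in Farage, where it was not called (adjusted p = 0.0687). KIF14 and KIF20B (motors of cytokinesis), KIF15 (a second spindle motor) and KIF18A (which aligns chromosomes) were lower in SU-DHL-8, with log2 fold changes of -0.74 (KIF18A) to -0.43 (KIF15), and were between -0.10 (KIF18A) and 0.13 (KIF14) in Farage without a call. In Farage KIF14 was called higher without either Farage control replicate 2 (0.17, adjusted p = 0.0447) or Farage morusinol replicate 1 (0.18, adjusted p = 0.0220) and with 2 other scalings. KIF18A was called lower there without Farage morusinol replicate 3 (-0.18, adjusted p = 0.0431), and KIF20A higher without SU-DHL-8 morusinol replicate 1 (0.13, adjusted p = 0.0357).

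The group of spindle assembly and cytokinesis held 9 genes, of which 7 could be tested. In SU-DHL-8 6 fell, and in Farage 3 rose and DLGAP5 fell. AURKA, the Aurora kinase of the spindle poles, had 39.0, 37.7 and 39.1 FPKM in SU-DHL-8 morusinol libraries, against 94.1, 92.1 and 85.2 FPKM in SU-DHL-8 controls. In Farage it had 28.8, 31.1 and 33.3 FPKM with morusinol and 27.4, 26.0 and 27.9 FPKM in the controls. TPX2, which activates AURKA and helps nucleate microtubules, had 106, 108 and 105 FPKM in SU-DHL-8 morusinol libraries, against 162, 164 and 163 FPKM in SU-DHL-8 controls. The Farage libraries held 84.7, 91.2 and 88.7 FPKM with morusinol and 65.3, 62.9 and 58.7 FPKM in the controls. Both pairs of groups were free of overlap, and AURKA changed by -1.21 ± 0.0556 in SU-DHL-8 and 0.19 ± 0.0556 in Farage, while TPX2 changed by -0.61 ± 0.0418 in SU-DHL-8 and 0.50 ± 0.0418 in Farage. The responses differed by 1.39 ± 0.0786 for AURKA (adjusted p = 8.4e-07) and by 1.11 ± 0.0591 for TPX2 (adjusted p = 6.3e-07). The Farage call of AURKA was lost without any one of Farage control replicate 2 and Farage morusinol replicates 2 and 3 (log2 value 0.14 to 0.19, adjusted p = 0.0512 to 0.0707), and with TPM (adjusted p = 0.0687). DLGAP5 (HURP), which stabilises microtubules near chromosomes, was lower in both lines. It had 20.4, 21.4 and 18.9 FPKM in SU-DHL-8 morusinol libraries, against 33.7, 35.4 and 32.7 FPKM in SU-DHL-8 controls. Its Farage values were 34.6, 36.1 and 36.7 FPKM with morusinol and 43.4, 46.8 and 46.9 FPKM in the controls. Its log2 fold changes were -0.72 ± 0.0517 in SU-DHL-8 and -0.34 ± 0.0517 in Farage. ECT2, the exchange factor that sets the cleavage furrow, had 12.4, 12.0 and 11.9 FPKM in SU-DHL-8 morusinol libraries, against 17.6, 19.2 and 17.2 FPKM in SU-DHL-8 controls. In Farage the values were 17.9, 18.2 and 20.8 FPKM with morusinol and 16.2, 17.1 and 16.8 FPKM in the controls. The SU-DHL-8 change of -0.54 ± 0.0587 and the Farage change of 0.17 ± 0.0587 were opposite, but the Farage call was lost without any one of Farage control replicates 1, 2 and 3 and Farage morusinol replicate 3 (log2 value 0.11 to 0.19, adjusted p = 0.0529 to 0.110), and with TPM (adjusted p = 0.105).

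HMMR, a spindle protein that also binds hyaluronan, was the single gene called in neither line in the fit of all libraries. It had 27.2, 30.1 and 30.0 FPKM in SU-DHL-8 morusinol libraries, against 33.6, 36.4 and 30.9 FPKM in SU-DHL-8 controls, with no overlap, and a log2 fold change of -0.20 ± 0.0876 (adjusted p = 0.0899). Farage libraries gave 22.9, 24.4 and 26.1 FPKM with morusinol and 19.2, 21.0 and 24.3 FPKM in the controls, which overlapped (0.18 ± 0.0876, adjusted p = 0.127). The difference of 0.38 ± 0.124 between these was called (adjusted p = 0.0366) and was lost without any one of Farage control replicates 1 and 2, Farage morusinol replicates 2 and 3, SU-DHL-8 control replicates 1 and 2 and SU-DHL-8 morusinol replicates 1 and 3 (log2 value 0.31 to 0.40, adjusted p = 0.0515 to 0.0828). Without Farage control replicate 3 HMMR was called lower in SU-DHL-8 (-0.20, adjusted p = 0.0474) and higher in Farage (0.27, adjusted p = 0.0267), and with TPM it was called lower in SU-DHL-8 (-0.31, adjusted p = 0.0315). ANLN (anillin, of the cleavage furrow) was at 53.4% of its control mean in SU-DHL-8 and ASPM (of the spindle poles) at 70.9%, with log2 fold changes of -0.86 and -0.48. They were at 91.9% and 102% in Farage, where neither was called. NUSAP1 and PRC1, which bundle spindle microtubules, were under the filter of 1 FPKM in 3 libraries, at 0.366 to 0.760 FPKM and 0.379 to 0.774 FPKM over all 12 libraries. Each shares most of its exon bases with another gene model on the same strand (62.2% for NUSAP1 and 57.6% for PRC1), so that its own level is uncertain. Those models, AC087721.2 and AC068831.7, were at 0 and at most 1.62 FPKM.

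Condensin folds chromosomes, topoisomerase II untangles them, and all 7 genes of this group fell in SU-DHL-8. In Farage 3 rose and 2 fell. The condensin ring of SMC2 and SMC4 fell in both lines, whereas its regulatory subunits NCAPG and NCAPH were higher in Farage. SMC2, whose promoter holds a single CHR match and no CCAAT box, had 24.0, 25.3 and 24.3 FPKM in SU-DHL-8 morusinol libraries, against 34.3, 36.5 and 32.8 FPKM in SU-DHL-8 controls. For Farage the table held 26.1, 28.2 and 27.8 FPKM with morusinol and 36.5, 36.6 and 37.5 FPKM in the controls. It was lower in every treated library, by -0.47 ± 0.0448 in SU-DHL-8 and -0.42 ± 0.0448 in Farage, and the difference of 0.057 ± 0.0633 was not called (adjusted p = 0.529). SMC4 was at 71.9% of its control mean in SU-DHL-8 (-0.46 ± 0.0670) and at 87.2% in Farage (-0.20 ± 0.0670), where its call was lost without any one of Farage control replicates 1 and 2 and Farage morusinol replicates 1 and 2 (log2 value -0.21 to -0.14, adjusted p = 0.0653 to 0.137), and with TPM (adjusted p = 0.136). SMC4 shares 18.5% of its exon bases with TRIM59 on the opposite strand, which was lower in SU-DHL-8 (-0.52) and not called in Farage (-0.20). NCAPG had 28.6, 30.0 and 29.0 FPKM in SU-DHL-8 morusinol libraries, against 41.0, 43.0 and 38.4 FPKM in SU-DHL-8 controls. In Farage it had 38.9, 39.1 and 41.7 FPKM with morusinol and 29.2, 33.2 and 30.9 FPKM in the controls. NCAPH had 7.76, 7.47 and 8.24 FPKM in SU-DHL-8 morusinol libraries, against 16.3, 16.4 and 16.9 FPKM in SU-DHL-8 controls. It was at 13.8, 14.7 and 13.6 FPKM with morusinol and 13.2, 12.5 and 12.1 FPKM in the controls in Farage. Both were lower in every treated library of SU-DHL-8 (-0.47 ± 0.0547 for NCAPG and -0.99 ± 0.0469 for NCAPH) and higher in every treated library of Farage (0.35 ± 0.0547 and 0.14 ± 0.0469). NCAPG shares 33.1% of its exon bases with LCORL on the opposite strand, which was at 4.01 FPKM at most and not called in either line. The Farage call of NCAPH was lost without any one of Farage control replicates 2 and 3 and Farage morusinol replicate 2 (log2 value 0.11 to 0.14, adjusted p = 0.0791 to 0.111), and with TPM (adjusted p = 0.0694). NCAPD2, the third regulatory subunit, was at 79.1% of its control mean in SU-DHL-8 (-0.33 ± 0.0608) and at 99.3% in Farage (not called). It shares 7.5% of its exon bases with MRPL51 on the opposite strand, which fell in both lines (-0.94 and -0.79).

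TOP2A, the topoisomerase of proliferating cells, had 111, 114 and 112 FPKM in SU-DHL-8 morusinol libraries, against 175, 183 and 166 FPKM in SU-DHL-8 controls. The Farage libraries held 105, 105 and 112 FPKM with morusinol and 88.9, 87.2 and 92.4 FPKM in the controls. It was at 64.2% of its control mean in SU-DHL-8 (-0.63 ± 0.0432) and at 119.8% in Farage (0.26 ± 0.0432), with no overlap in either line. MKI67 (Ki-67), which coats mitotic chromosomes and is the usual stain for proliferating cells, averaged 40.0 ± 2.49 FPKM in SU-DHL-8 morusinol libraries and 58.5 ± 4.99 FPKM in SU-DHL-8 controls. It averaged 69.4 ± 4.20 FPKM in Farage morusinol libraries and 69.2 ± 6.33 FPKM in Farage controls (SD, n = 3 each). MKI67 was called lower in SU-DHL-8 (-0.54 ± 0.0817) and was not called in Farage (0.0061 ± 0.0817, adjusted p = 0.966).

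Without morusinol, most of the mitotic genes were lower in Farage than in SU-DHL-8. In Farage controls relative to SU-DHL-8 controls, 41 of the 53 genes were lower, 4 were higher and 8 were not called, with a median of -0.51 on the log2 scale. Over all genes tested 64.1% were called (34.5% higher and 29.6% lower), with a median of 0.083, which rescaling to TPM moved to 0.19. UBE2C had the lowest value, with 48.7 ± 3.22 FPKM in Farage controls and 245 ± 1.89 FPKM in SU-DHL-8 controls (-2.31 ± 0.0542). AURKA averaged 27.1 ± 0.961 FPKM in Farage controls and 90.5 ± 4.68 FPKM in SU-DHL-8 controls (-1.70 ± 0.0556), and BUB1 averaged 22.2 ± 1.09 FPKM in Farage controls and 72.5 ± 4.68 FPKM in SU-DHL-8 controls (-1.66 ± 0.0596). The 4 genes higher in Farage controls were WEE1, with 23.1 ± 1.28 FPKM in Farage controls and 13.8 ± 0.196 FPKM in SU-DHL-8 controls (0.71 ± 0.0429), DLGAP5 (0.42 ± 0.0517), CDC25C (0.25 ± 0.101) and MKI67 (0.24 ± 0.0817). The number higher was 2 without any one of Farage control replicates 1 and 2 and SU-DHL-8 control replicate 1. The call of MKI67 was lost without any one of Farage control replicates 1 and 2 and SU-DHL-8 control replicates 1 and 2 (log2 value 0.18 to 0.22, adjusted p = 0.0714 to 0.0994), and that of CDC25C without any one of Farage control replicates 1, 2 and 3, Farage morusinol replicate 3, SU-DHL-8 control replicates 1 and 3 and SU-DHL-8 morusinol replicates 1 and 3 (log2 value 0.21 to 0.29, adjusted p = 0.0507 to 0.149). Among those lower in Farage controls, INCENP was not called without Farage control replicate 2 (log2 value -0.20, adjusted p = 0.0543), CCNB2 without SU-DHL-8 control replicate 1 (log2 value -0.090, adjusted p = 0.0669), SPC25 without either Farage control replicate 1 or SU-DHL-8 control replicate 1 (log2 value -0.20 to -0.19, adjusted p = 0.0961 to 0.0962), and BUB3 without any one of Farage control replicates 1 and 2 and SU-DHL-8 control replicates 1 and 2 (log2 value -0.13 to -0.11, adjusted p = 0.0553 to 0.0859). SGO1, not called between controls with all libraries, was called lower without any one of 4 libraries (log2 value -0.30 to -0.25), and SMC2 was called higher without SU-DHL-8 control replicate 2 (0.13, adjusted p = 0.0271) and with TPM (0.19, adjusted p = 0.0273). This comparison shares its control libraries with the treatment comparisons, so the values of each stand side by side and were not set against each other.

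A further 129 genes of mitosis outside the panel were followed in 7 lists, and 124 of them were tested. In SU-DHL-8 84 fell and 14 rose, with a median of -0.34. In Farage 38 fell and 34 rose, with a median of -0.027. Over all genes tested, 21.6% were lower and 25.1% higher in SU-DHL-8, and 21.2% were lower and 21.9% higher in Farage. The Farage median of all genes tested was -0.027 as well. The same shares of all genes tested apply to the lists below. The difference between the responses was called above 0 for 67 and below 0 for 5, against 17.3% and 17.6% of all genes tested. Of 32 other spindle and cytokinesis genes, 29 were tested, and 23 fell in SU-DHL-8, while in Farage 9 rose and 6 fell. CDCA2, which brings a phosphatase to chromosomes, averaged 14.3 ± 0.479 FPKM in SU-DHL-8 morusinol libraries and 26.8 ± 1.31 FPKM in SU-DHL-8 controls. It averaged 56.2 ± 4.11 FPKM in Farage morusinol libraries and 34.9 ± 0.695 FPKM in Farage controls (SD, n = 3 each). Its responses differed by 1.53 ± 0.0766 (adjusted p = 4.2e-07). Of 31 tested genes of the centromere and kinetochore, 22 fell in SU-DHL-8, and 12 fell and 6 rose in Farage. CENPW, ZWINT and TRIP13 fell in both lines, with ZWINT at -1.10 in SU-DHL-8 and -0.88 in Farage. In condensin II, the form that stays in the nucleus, all 3 subunits fell in SU-DHL-8, while NCAPD3 fell (-0.42) and NCAPG2 rose (0.13) in Farage. The related cohesin list had 8 of 14 lower and 3 higher in SU-DHL-8, and 6 higher and 2 lower in Farage, with RAD21 at 0.041 ± 0.0555 (not called) in SU-DHL-8 and 0.65 ± 0.0555 in Farage.

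Among 18 other mitotic kinases and entry regulators, 11 fell and 2 rose in SU-DHL-8, and 5 rose and 4 fell in Farage. CDC25A, the phosphatase that acts from G1/S onward, fell in both lines (-1.37 in SU-DHL-8 and -0.97 in Farage), as did CKS2, a CDK subunit (-1.15 in SU-DHL-8 and -0.82 in Farage). Among 18 genes of the anaphase-promoting complex and its regulators, 10 fell and 2 rose in SU-DHL-8, and 7 fell and 2 rose in Farage. FZR1 (CDH1), which activates that complex after mitosis, averaged 11.0 ± 0.312 FPKM in SU-DHL-8 morusinol libraries and 8.24 ± 0.479 FPKM in SU-DHL-8 controls, and rose there by 0.38 ± 0.0695. It averaged 10.3 ± 0.983 FPKM in Farage morusinol libraries and 5.69 ± 0.393 FPKM in Farage controls, and rose by 0.76 ± 0.0695. Of 11 tested genes of the DREAM and MuvB complexes, which bind CHR elements, 7 fell and 2 rose in SU-DHL-8, and 6 fell and 5 rose in Farage. MYBL2 (B-MYB), the activator in those complexes, averaged 123 ± 2.74 FPKM in SU-DHL-8 morusinol libraries and 295 ± 9.51 FPKM in SU-DHL-8 controls. It averaged 88.6 ± 4.53 FPKM in Farage morusinol libraries and 159 ± 11.0 FPKM in Farage controls (SD, n = 3 each). MYBL2 thus fell in both lines (-1.26 in SU-DHL-8 and -0.84 in Farage), and so did TFDP1, a partner of E2F (-1.28 in SU-DHL-8 and -0.67 in Farage). TFDP2, another partner of E2F, was called in opposite directions, at -0.60 in SU-DHL-8 and 0.33 in Farage.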

How the data were processed

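Gene expression was measured by RNA sequencing of 12 libraries, prepared with a SMARTer kit for mRNA-seq, per the labels' protocols. The authors deposited 1 table of FPKM values with a column per library; the aligner, the counting program, its annotation and whether strand was used are not given in the sources read. Mouse builds (GRCm38, mm10) are named in the submitters' processing notes, but every one of the 61466 genes carries a human Ensembl identifier. GENCODE release 29 (GRCh38) lists 58297 of these (94.8%), and gene positions and overlaps were taken from it. Columns whose names carry "mor" were taken as morusinol and those with "n" as control, the only group left. Identical libraries were not found, and 19053 genes were at 0 throughout.

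Depth was estimated from the steps of low FPKM values; within 0.02 fragments, 52.2% to 55.7% of them were whole. Counting intervals are not given, since these depths are estimates. Genes with at least 1 FPKM in at least 3 libraries were kept (17574, of which 53 of the 55 panel genes), and log2(FPKM + 1) was fitted with limma 3.58.1 in R 4.3.3 (1 mean per group over all 12 libraries, empirical Bayes with intensity trend and robust prior). Fold changes on this scale understate the change of low genes. P-values are two-sided, adjusted by the Benjamini-Hochberg method over all genes tested, and called under 0.05. The fit was tested on simulated data. Tables, promoter searches in RefSeq windows and plots used pandas 2.3.3, matplotlib 3.10.9 and numpy 2.4.6 under Python 3.11.15.

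The panel, its 7 role groups and the 7 related lists were chosen with earlier results of these data known. Values in every library are given for the pair of genes with the smallest sum of p-value ranks over both lines in each role group, for genes called higher or in opposite directions, for the 5 smallest p-values of the difference, and for genes called in neither line. Up to 4 genes of each related list could be named by rank sum. SPC24 was named outside that rule, beside the panel genes of the NDC80 complex. Alternatives were pseudocounts of 0.1 and 0.5, no filter, a filter of 5 FPKM, 3 other scalings, a plain prior, each line on its own, a replicate block and each library left out in turn.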

Additional observations from a re-analysis of the deposited data

Results flagged for a closer look

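For 49 of the 53 tested genes the test of the difference itself gave a response to morusinol that differed between the 2 lines (limma, adjusted p under 0.05 over all genes tested, which 34.9% of all genes tested also had). The values below give the response of Farage minus that of SU-DHL-8 on the log2 scale, and all lie above 0. With 3 libraries a group, no library was tested as an outlier. Counts with each library left out in turn are given below.

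Among the cyclins and the switches of CDK1 the difference was 1.21 for PLK1, 1.17 for CCNB1, 0.96 for CCNF, 0.93 for CDK1, 0.82 for WEE1, 0.71 for CCNA2, 0.51 for FOXM1 and 0.46 for CDC25C. In the chromosomal passenger complex it was 0.89 for CDCA8, 0.88 for AURKB, 0.88 for BIRC5 and 0.48 for INCENP. For the spindle checkpoint and anaphase onset it was 1.39 for UBE2C, 1.21 for BUB1B, 0.98 for CDC20, 0.83 for BUB1, 0.75 for PTTG1, 0.71 for BUB3, 0.50 for ESPL1, 0.45 for SGO1, 0.40 for TTK and 0.36 for MAD2L1. At the centromere and kinetochore the values were 0.87 for CENPA, 0.80 for CENPF, 0.78 for NDC80, 0.48 for NUF2, 0.43 for SPC25 and 0.31 for CENPE. The kinesin motors had differences of 1.15 for KIF20A, 1.03 for KIF23, 1.01 for KIF4A, 0.89 for KIF11, 0.63 for KIF18A, 0.61 for KIF14, 0.48 for KIF20B, 0.41 for KIF2C and 0.39 for KIF15. Genes of spindle assembly and cytokinesis differed by 1.39 for AURKA, 1.11 for TPX2, 0.74 for ANLN, 0.71 for ECT2, 0.51 for ASPM, 0.38 for DLGAP5 and 0.38 for HMMR. In the group of condensin, topoisomerase and the chromosome surface the values were 1.13 for NCAPH, 0.89 for TOP2A, 0.82 for NCAPG, 0.54 for MKI67 and 0.32 for NCAPD2.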

How the results depend on the processing

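No direction of a called gene reversed under any of the 22 alternatives. Of 4558 values of single genes, 4382 kept their side of the threshold, 139 lost a call and 37 gained one. Values not called in either fit were counted among the 4382 whether or not their sign changed. With each library left out in turn, the counts ran between 46 and 48 lower and stood at 1 higher in SU-DHL-8, 21 and 26 higher and 6 and 11 lower in Farage, 45 and 49 above 0 and 0 and 1 below 0 for the difference, and 2 and 4 higher and 38 and 42 lower for Farage controls relative to SU-DHL-8 controls. Without a filter on low values, the number higher in Farage controls was 2; the cause was not tested. With TPM the counts were 1 higher and 49 lower in SU-DHL-8, 21 higher and 7 lower in Farage, 51 above 0 for the difference, and 5 higher and 35 lower between controls. With TPM the differences between controls of ASPM (-0.17), BUB3 (-0.041), CCNB2 (-0.0086), CENPA (-0.072), INCENP (-0.18) and SPC25 (-0.17) were no longer called. Without a filter on low values, the Farage calls of BIRC5, CDK1, ECT2, NCAPH, SGO1 and SMC4 (adjusted p = 0.0611 to 0.0797), the SU-DHL-8 call of NDC80 (adjusted p = 0.0675) and the differences of CDC25C, HMMR, SGO1, SPC25 and TTK (adjusted p = 0.0526 to 0.0834) were lost. With each line fitted on its own, the Farage calls of AURKA, BIRC5, ECT2, NCAPH and SMC4 were lost (adjusted p = 0.0515 to 0.111), and with median-of-ratios or trimmed mean scaling those of BIRC5 and CDK1 (adjusted p = 0.0589 to 0.0948). With a plain prior the Farage calls of BIRC5, ECT2, NCAPH and SMC4 (adjusted p = 0.0534 to 0.0623) and the SU-DHL-8 call of NDC80 (adjusted p = 0.0531) were lost.

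Deviations of same-numbered libraries from their group means correlated between -0.079 and 0.033 over all genes tested. These correlations cannot show whether same-numbered libraries were prepared together. With a replicate block the counts were 1 higher and 48 lower in SU-DHL-8, 24 higher and 7 lower in Farage, 46 above 0 for the difference, and 3 higher and 40 lower between controls. NUSAP1 and PRC1, which were not tested, had the fewest estimated fragments in a library, 6 and 17. The tested gene with the fewest, CDC25C, had 86.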

Other observations

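The responses were also read by promoter letters, as a description with no test. The 34 tested genes with TTTGAA in a window had a median log2 fold change of -0.54 in SU-DHL-8 and 0.088 in Farage, and the 11 without it (AURKB, BUB1, CCNA2, CCNB1, CDC25B, CENPE, KIF20A, KIF2C, NCAPH, PTTG1 and SGO1) had medians of -0.52 and 0.14. The 35 tested genes with CCAAT had medians of -0.62 in SU-DHL-8 and 0.14 in Farage, and the 10 without it had medians of -0.46 and -0.046. The 12 tested genes with an E2F site had medians of -0.56 in SU-DHL-8 and -0.073 in Farage, and the 33 without it had medians of -0.54 and 0.14.

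Across the 53 genes, the Farage and SU-DHL-8 responses correlated with a Pearson r of 0.443 and a Spearman rho of 0.359, and across all 17574 genes tested with an r of 0.406 and a rho of 0.404. Genes are not independent replicates, and both values describe the same 12 libraries.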
